A study of Sus scrofa with 16 samples.

Results

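The enzymes described here were 9 genes of the tricarboxylic acid cycle, measured in the diaphragm and the psoas major of pigs. They were CS (citrate synthase), IDH3A, IDH3B and IDH3G (the subunits of NAD-dependent isocitrate dehydrogenase), OGDH (the decarboxylating component of the 2-oxoglutarate dehydrogenase complex), SUCLG1 (the alpha subunit of succinyl-CoA ligase), SDHA and SDHD (subunits of succinate dehydrogenase) and MDH2 (mitochondrial malate dehydrogenase). Every probe set whose only gene symbol in the platform annotation was one of these names was taken, whatever its values. This gave 12 of the 24123 probe sets of the array, and 9 of the 6765 genes that the annotation names by 1 symbol. CS had the probe sets Ssc.16315.1.S1_at and Ssc.16315.1.S2_at, IDH3A had Ssc.5389.1.S1_at and Ssc.5389.2.S1_at, and SDHA had Ssc.4406.1.A1_at and Ssc.24988.1.S1_at. In each pair the identifier given before the other has the higher mean over the 16 arrays and is called the brighter probe set, and the other the dimmer. The remaining genes had 1 probe set each. All 12 passed the filter for testing, which asked for a log2 value of 4 or more on no fewer than 4 arrays. Their values lay between 6.32 and 13.48 in every array, so that none entered through a group in which it was high.

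The animals were 8 Iberian pigs, a fat Mediterranean breed, slaughtered at an age of 211 days. Males 1 and 4 and females 6 and 7 were on a high feeding level, and males 2 and 3 and females 5 and 8 under a restriction of 20%. Each animal gave 1 Affymetrix porcine array of each muscle, and all were fed a common pelleted diet up to the restriction. Whether the males were castrated, when the restriction began and whether any of the animals were related is not given in the sources used here. The design compares the muscles, with both arrays of an animal forming a pair, the feeding levels and the sexes. The values are log2 expression, so that a difference is the log2 of a ratio. Probe sets bind with different strength, so that the level of a probe set was set only against its own level in other arrays.

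The tricarboxylic acid cycle oxidises acetyl-CoA in the mitochondrial matrix and passes the electrons to the respiratory chain as NADH and, through succinate dehydrogenase, directly to ubiquinone. Citrate synthase opens the cycle, the isocitrate and 2-oxoglutarate dehydrogenases are its regulated oxidative steps, and malate dehydrogenase closes it by regenerating oxaloacetate. Muscle fibres rich in mitochondria carry more of these enzymes than glycolytic fibres, and citrate synthase and succinate dehydrogenase activities are common measures of the oxidative capacity of a muscle.

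Both tissues carried the transcripts that define skeletal muscle. The mean log2 level of CKM, DES and TTN lay between 13.91 and 14.19 in the diaphragm arrays and between 13.99 and 14.15 in the psoas arrays, and none of the 3 was called different. Array medians lay between 3.56 and 3.62, and no arrays held identical values. The difference between the 3' and 5' actin control probe sets, a sign of RNA quality that grows with degradation, was 4.28, 4.21, 4.07 and 4.33 in the diaphragm arrays of animals 1, 2, 3 and 5. It was 3.37, 3.49, 3.35 and 3.36 in those of animals 4, 6, 7 and 8, and 3.07 to 3.85 in the psoas arrays. The diaphragm arrays thus fell into separate sets by this measure, and the muscle differences are also given without the 4 animals of the higher set. Feeding and sex could not be compared in the other animals, among which 1 was restricted and 1 was male, but with the actin difference as a covariate no member was called by either.

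Between the muscles, enzymes of the cycle were called in both directions. IDH3A was 1.44-fold higher in psoas by 1 of its 2 probe sets, while MDH2 was 1.34-fold lower and SDHA, also by 1 of its 2, 1.26-fold lower. No probe set of CS, IDH3B, IDH3G, OGDH, SUCLG1 or SDHD passed the test. In all, 3 of the 12 probe sets were called at an adjusted p under 0.05, 1 higher and 2 lower in psoas. With the animal as a block, which uses the pairing of the arrays, SDHD was called as well, giving 1 higher and 3 lower among 3836 calls over all probe sets (3897 with the animal as a random effect). An unadjusted p under 0.05 was reached by 5 of 12, against 39.7% of all tested. Of all 11467 probe sets tested, 27.0% were called, 14.6% higher and 12.4% lower, so that the count among the cycle enzymes is near the background and is no result about them as a group. The median psoas minus diaphragm difference was -0.08 over the 12 probe sets and 0.02 over all tested, and 9 of the 12 differences were negative. These are bulk samples, in which fewer cells of a type and less RNA per cell cannot be told apart.

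**Figure D1:**
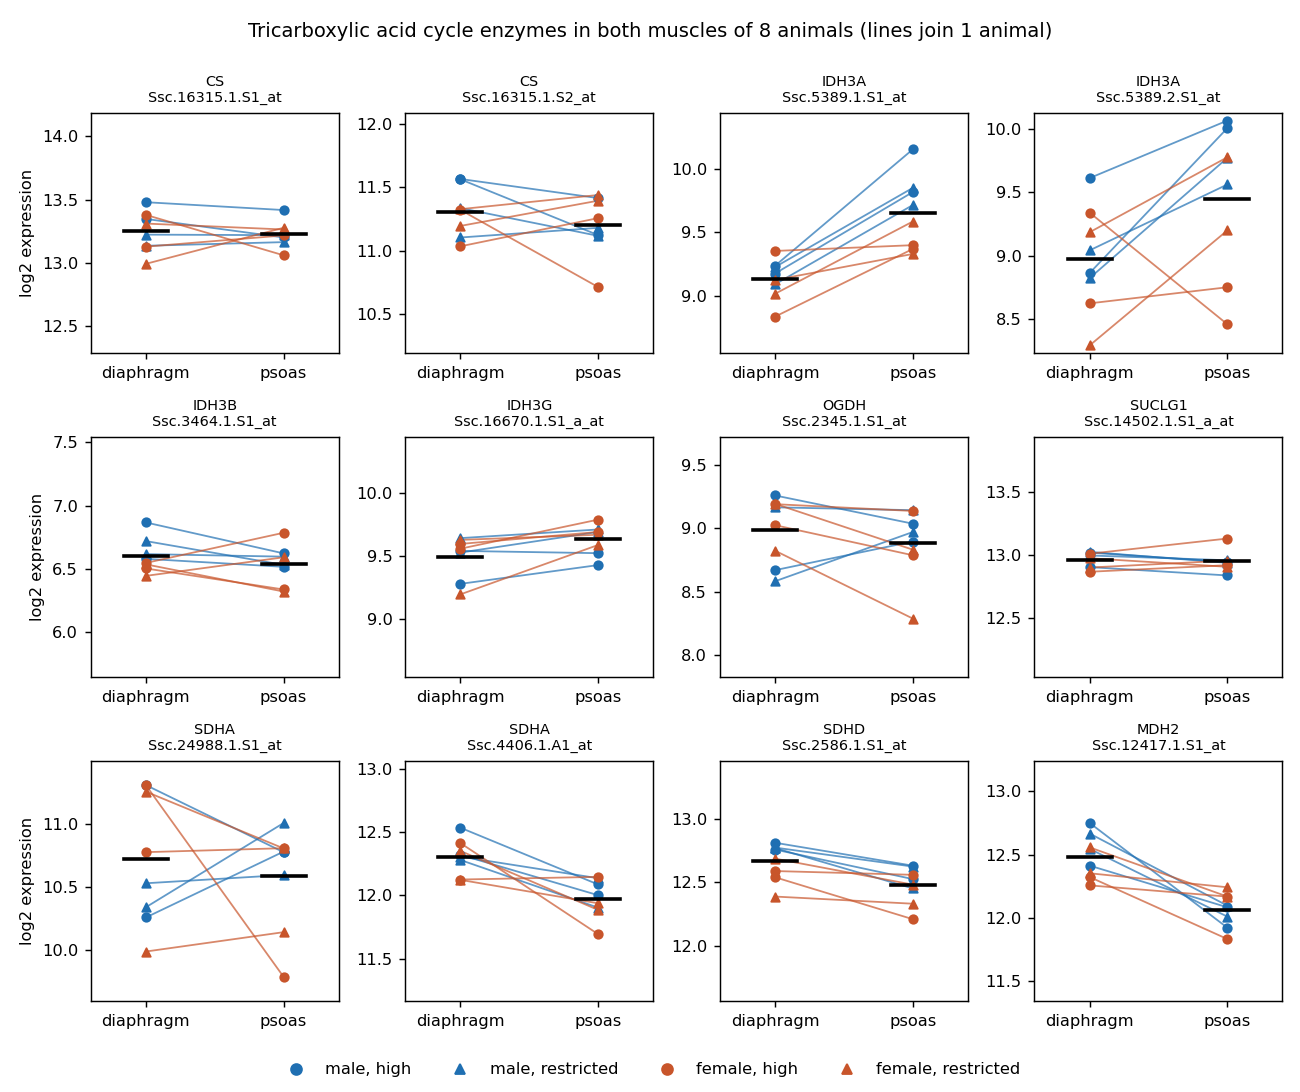
Log2 expression (vertical axes, all spanning the same range) of the 12 probe sets in the diaphragm and psoas arrays of 8 animals, with a line joining the arrays of an animal, colours for sex, symbols for feeding level and black bars for muscle means. The brighter IDH3A probe set rises in every animal, and MDH2 falls in every animal with muscles that do not overlap (12.26 to 12.75 against 11.83 to 12.24).

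The entry into the cycle showed no called difference. The brighter CS probe set had a lowest, median and highest log2 level of 12.99, 13.27 and 13.48 in diaphragm and of 13.06, 13.22 and 13.42 in psoas. The psoas range lay inside that of the diaphragm. The difference was -0.02 ± 0.075 (SE), with a 95% interval from -0.18 to 0.14 and an adjusted p of 0.852. The dimmer CS probe set spanned 11.03 to 11.57 in diaphragm and 10.71 to 11.44 in psoas, with a difference of -0.10 ± 0.11 and an adjusted p of 0.531. It was higher in psoas in 4 animals and lower in 4. The 95% interval of the dimmer probe set ran from -0.34 to 0.14.

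Of the subunits of isocitrate dehydrogenase, IDH3A was higher in psoas and the others were not called. IDH3A encodes the catalytic alpha subunit. By the brighter probe set its lowest, median and highest log2 levels were 8.84, 9.15 and 9.35 in diaphragm and 9.33, 9.65 and 10.16 in psoas. The muscles overlapped only in that the lowest psoas array, of animal 5, lay just under the highest diaphragm array, of animal 7. Psoas was higher in 8 of 8 animals, by 0.64, 0.63, 0.63 and 0.92 in males 1 to 4 and by 0.21, 0.53, 0.05 and 0.57 in females 5 to 8. The fitted difference was 0.52 ± 0.096, with an adjusted p of 0.00143. Animal 7 stood out with a difference close to 0.

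The dimmer IDH3A probe set gave a difference of like size but far wider spread. Its levels ran from 8.29 to 9.61 in diaphragm and from 8.46 to 10.07 in psoas. It was higher in psoas in 7 of 8 animals, by 0.13 to 1.14, and 0.88 lower in animal 7. Its difference of 0.48 ± 0.21 was not called (adjusted p = 0.108). Without animal 7 it was 0.67 and was called (adjusted p = 0.0237). With the actin difference as a covariate it was 0.12, and with animals 4, 6, 7 and 8 alone 0.07, a fraction of its value over all arrays. The brighter probe set kept its size under both settings, as given below.

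IDH3B and IDH3G encode the regulatory beta and gamma subunits, which sit with the alpha subunit in the same enzyme. IDH3B ranged from 6.44 to 6.87 around a median of 6.56 in diaphragm and from 6.32 to 6.78 around a median of 6.56 in psoas. The medians were equal at this precision, and the difference was -0.06 ± 0.077 (adjusted p = 0.564). IDH3G ranged from 9.20 to 9.64 in diaphragm and from 9.43 to 9.79 in psoas, and its difference of 0.14 ± 0.082 was not called (adjusted p = 0.219). It was higher in psoas in 7 of 8 animals, with animal 4 lower by 0.02.

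The subunits' muscle differences were set against each other within animals, with an exact two-sided sign-flip permutation test over 8 animals and adjustment over the 4 pairs compared. These pairs were chosen after their values were seen, a choice that the adjustment does not cover. The psoas minus diaphragm difference of IDH3A exceeded that of IDH3B by 0.59 ± 0.37 (SD, n = 8) and did so in 8 of 8 animals, with an exact p of 0.00781, the smallest the test can give, and an adjusted p of 0.0312. It exceeded that of IDH3G by 0.38 ± 0.36 (SD, n = 8) in 6 of 8 animals (exact p = 0.0312, adjusted 0.0417). The difference of IDH3G exceeded that of IDH3B by 0.20 ± 0.11 (SD, n = 8) in 7 of 8 animals (exact p = 0.0156, adjusted 0.0312). With the dimmer IDH3A probe set the adjusted exact p rose to 0.156 against IDH3B and 0.25 against IDH3G. An adjusted exact p under 0.05 for IDH3A thus rested on the brighter probe set. The fitted muscle differences of the brighter and the dimmer one were of like size (0.52 and 0.48). With an animal left out, IDH3A against IDH3B lay between 0.50 and 0.66, IDH3A against IDH3G between 0.30 and 0.46 and IDH3G against IDH3B between 0.18 and 0.23. The adjusted exact p then reached 0.0625, 0.0833 and 0.0625. It rose above 0.05, so that the test was no longer met, without animal 1, 2, 3, 4 or 8 in all 3 pairs. In IDH3A against IDH3G it was also above 0.05 without animal 6. With 7 animals the exact p cannot be below 0.0156.

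**Figure D2:**
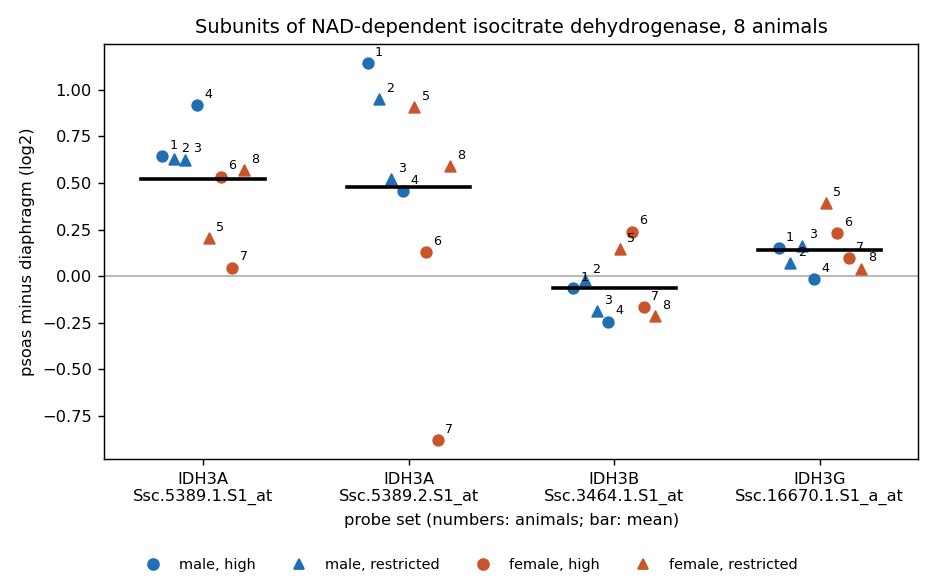
Psoas minus diaphragm difference in log2 units (vertical axis) of the probe sets for the isocitrate dehydrogenase subunits, 1 point per animal with its number, colours for sex, symbols for feeding level and bars for means. All 8 points of the brighter IDH3A probe set lie above 0, those of IDH3B lie between -0.24 and 0.24, and animal 7 stands at -0.88 in the dimmer IDH3A probe set.

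The middle steps of the cycle showed no called difference. OGDH ranged from 8.58 to 9.26 around a median of 9.10 in diaphragm and from 8.29 to 9.14 around a median of 8.93 in psoas. It was lower in psoas in 6 of 8 animals, with a difference of -0.10 ± 0.13 (adjusted p = 0.596). SUCLG1, whose product joins the beta subunits SUCLA2 or SUCLG2 in succinyl-CoA ligase, was the steadiest of the 12 probe sets. Its 16 arrays lay between 12.84 and 13.13, and its difference of -0.01 ± 0.059 had a 95% interval from -0.14 to 0.11 (adjusted p = 0.890).

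Succinate dehydrogenase is both a cycle enzyme and complex II of the respiratory chain. SDHA encodes its flavoprotein, which oxidises succinate. By the brighter probe set its lowest, median and highest log2 levels were 12.12, 12.31 and 12.54 in diaphragm and 11.69, 11.97 and 12.15 in psoas. Psoas was lower in 7 of 8 animals, by up to 0.72, and 0.02 higher in animal 6. The muscles overlapped in a few arrays only, and the difference of -0.33 ± 0.078 was called (adjusted p = 0.00644).

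The dimmer SDHA probe set behaved differently, and its muscle difference had the largest error of the 12. Its diaphragm levels were 10.26, 10.34, 10.53 and 9.99 in animals 1, 2, 3 and 5 and 11.30, 10.77, 11.30 and 11.25 in animals 4, 6, 7 and 8. The psoas levels of animals 1 to 8 were 10.78, 11.00, 10.59, 10.77, 10.14, 10.81, 9.79 and 10.80. In the diaphragm the animals with the higher actin difference were all below the others, and in psoas animals 5 and 7, which had the highest actin differences there, were the lowest. The muscle difference was -0.13 ± 0.23 (adjusted p = 0.693), negative in 3 animals and positive in 5. Without animal 7, whose difference was -1.51, it turned to 0.07 (adjusted p = 0.841). With the actin difference of each array as a covariate it was -0.57 ± 0.11 and was called (adjusted p = 0.00289), and with animals 4, 6, 7 and 8 alone it was -0.62 ± 0.24 (adjusted p = 0.186).

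SDHD encodes the small membrane anchor of the complex. It ranged from 12.39 to 12.81 around a median of 12.72 in diaphragm and from 12.21 to 12.63 around a median of 12.50 in psoas. Psoas was lower in 8 of 8 animals, by 0.03 to 0.33. The difference of -0.19 ± 0.068 lay just outside the threshold (adjusted p = 0.0529), and with the animal as a block it was called (adjusted p = 0.0399). The muscle difference of SDHA was lower than that of SDHD by 0.14 ± 0.18 (SD, n = 8), which did not pass the exact permutation test (p = 0.0625).

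MDH2, the last enzyme of the cycle, also serves the malate-aspartate shuttle that brings cytosolic reducing equivalents into mitochondria. Its diaphragm levels were 12.75, 12.67, 12.55, 12.41, 12.56, 12.26, 12.32 and 12.35 in animals 1 to 8, and its psoas levels were 11.92, 12.10, 12.01, 12.09, 12.17, 12.17, 11.83 and 12.24. Every diaphragm array lay above every psoas array, which held for 1 of the 12 probe sets and for 3.72% of all tested. The difference was -0.42 ± 0.082, with a 95% interval from -0.59 to -0.24 and an adjusted p of 0.00217. It varied from -0.09 in animal 6 and -0.11 in animal 8 to -0.83 in animal 1. The sign was the same in 8 of 8 animals for 3 of the 12 probe sets (the brighter IDH3A probe set, SDHD and MDH2), against 21.4% of all tested.

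**Figure D3:**
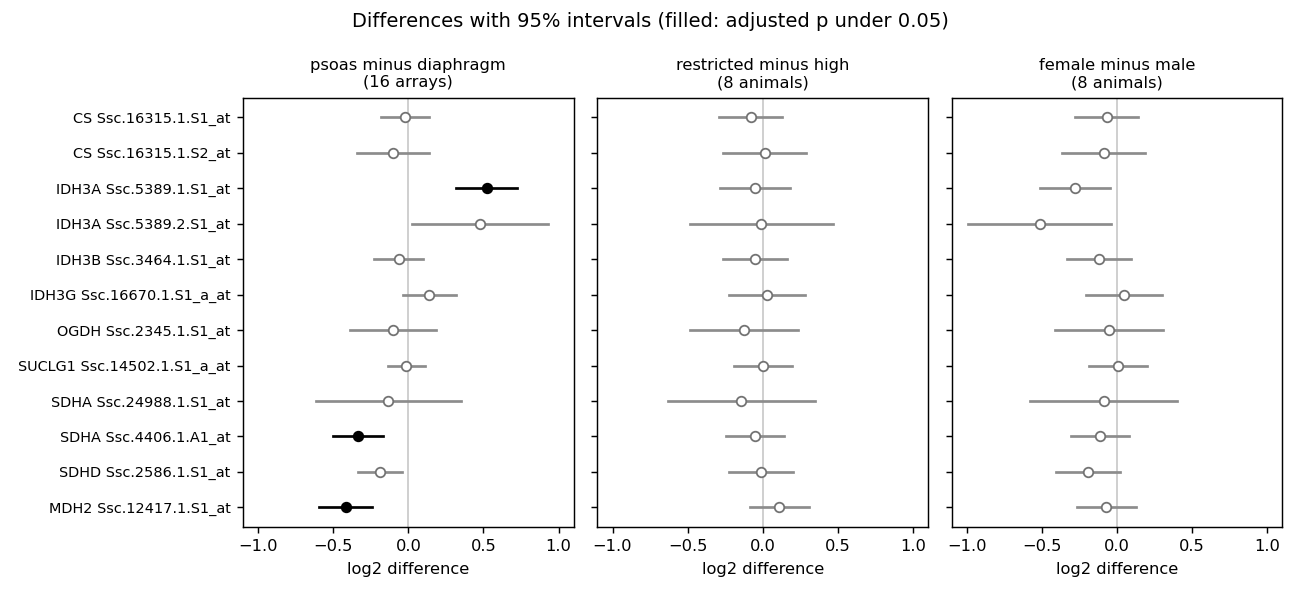
Fitted log2 differences with 95% intervals (horizontal axes) of the 12 probe sets for psoas minus diaphragm over 16 arrays, restricted minus high feeding and female minus male over 8 animals each. Filled points passed an adjusted p of 0.05 (the brighter IDH3A probe set, the brighter SDHA probe set and MDH2, all in the left panel), and the intervals for feeding all include 0.

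The members were also set against the actin difference. In the diaphragm, 2 of the 12 probe sets separated animals 1, 2, 3 and 5 from the others without overlap, against 11.4% of all tested. This count is near the background and is no result about the members as a group. The 2 probe sets were the dimmer SDHA one, lower in those animals, and MDH2, higher in them (12.55 to 12.75 against 12.26 to 12.41). Those animals held 3 of the 4 restricted pigs and 3 of the 4 males. With the actin difference as a covariate the brighter IDH3A probe set (0.47, adjusted p = 0.0086), the brighter SDHA probe set (-0.40, adjusted p = 0.00492) and MDH2 (-0.35, adjusted p = 0.0135) were still called.

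With animals 4, 6, 7 and 8 alone no member was called, and 405 of 11467 probe sets were. The brighter IDH3A probe set was then 0.52 (adjusted p = 0.128) and the brighter SDHA probe set -0.40 (adjusted p = 0.147), as large as with all animals. MDH2 was -0.25 (adjusted p = 0.249), and the dimmer IDH3A probe set was 0.07, against 0.48 with all animals. Over the 8 psoas arrays the actin difference was related to the members with 12 correlations. The dimmer SDHA probe set had the strongest, with Pearson's r = -0.81 (exact permutation p = 0.0125, adjusted 0.149) and Spearman's rho = -0.57 (exact permutation p = 0.151, adjusted 0.929). Without animals 5 and 7 r was -0.043, so that the relation rested on them. No correlation was taken over the diaphragm arrays, which fell into separate sets.

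**Figure D4:**
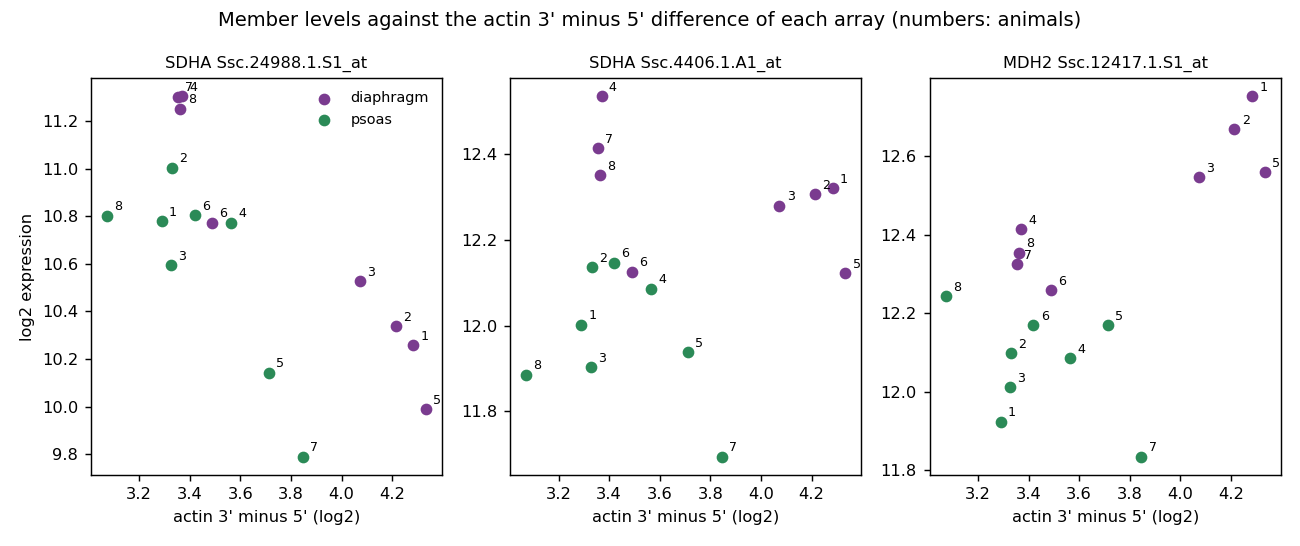
Log2 expression (vertical axes) of both SDHA probe sets and MDH2 against the 3' minus 5' gap of the actin control in log2 units (horizontal axes), 1 point per array, with animal numbers and colours for muscle. The diaphragm arrays of animals 1, 2, 3 and 5 stand apart at 4.07 to 4.33, low for the dimmer SDHA probe set and high for MDH2.

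No member was called different by feeding level. In the comparison of animal means 0 of the 12 probe sets were called, and limma called 0 of all 11467 (0%), of which 1451 (12.7%) had an unadjusted p under 0.05. No member was among these. The member differences, restricted minus high, ran from -0.14 to 0.11, with a median of -0.03 against -0.02 over all tested. Adjusted p-values were 0.613 to 0.991. A p that misses the threshold does not show that the levels did not differ, and the intervals reached from -0.63 for the dimmer SDHA probe set to 0.47 for the dimmer IDH3A probe set.

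MDH2 had the smallest adjusted p among the members. The means of both muscles had a lowest, median and highest value of 12.08, 12.23 and 12.34 in the 4 animals on high feeding and of 12.28, 12.33 and 12.38 in the 4 restricted animals. The levels overlapped, and the difference was 0.11 ± 0.085 (adjusted p = 0.613). For the brighter CS probe set the animal means spanned 13.17 to 13.45 on high feeding and 13.14 to 13.29 under restriction, a difference of -0.08 ± 0.091 (adjusted p = 0.743). The narrowest interval was that of SUCLG1, from -0.19 to 0.19.

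Within a muscle the picture was the same. In diaphragm and in psoas 0 of 12 members were called, and 0% of all tested in each, with 1101 (9.60%) and 1291 (11.3%) probe sets at an unadjusted p under 0.05 and no member among them. For no member did the feeding levels separate without overlap in either muscle, against 4.88% of all tested in diaphragm and 4.98% in psoas. The largest member difference in diaphragm was -0.38 ± 0.32 for the dimmer SDHA probe set. There the levels were 10.26, 11.30, 10.77 and 11.30 in high-fed animals 1, 4, 6 and 7 and 10.34, 10.53, 9.99 and 11.25 in restricted animals 2, 3, 5 and 8, and both sets held low and high arrays. The interaction of muscle and feeding was called for 0 members and 0% of all tested, with 696 of all (6.07%) and no member at an unadjusted p under 0.05. The mean psoas minus diaphragm difference of the brighter IDH3A probe set was 0.54 ± 0.36 (SD, n = 4) on high feeding and 0.51 ± 0.20 (SD, n = 4) under restriction. For MDH2 it was -0.43 ± 0.31 and -0.40 ± 0.21 (SD, n = 4 each). Other members had larger interaction values, restricted minus high. They were 0.53 for the dimmer IDH3A probe set (interval -0.21 to 1.28) and 0.48 for the dimmer SDHA probe set (-0.36 to 1.33). For the dimmer CS probe set the value was 0.29 (-0.17 to 0.74). These intervals include 0 but are too wide to show that the muscle differences were alike at both feeding levels.

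By sex, 0 of 12 members were called, with 0.183% of all probe sets called (21 of 11467). The 2 members with an unadjusted p under 0.05 were the IDH3A probe sets, both lower in females, against 9.17% of all tested with such a p. The animal means of the brighter IDH3A probe set spanned 9.40 to 9.70 around a median of 9.52 in the 4 males and 9.10 to 9.38 around a median of 9.26 in the 4 females. The difference of -0.28 ± 0.10 had an adjusted p of 0.472. The animal means of the sexes did not overlap for this probe set and for SDHD (12.61 to 12.72 in males and 12.36 to 12.58 in females, -0.20 ± 0.092, adjusted p = 0.589), 2 of 12 against 4.40% of all tested. The dimmer IDH3A probe set gave -0.52 ± 0.21 (adjusted p = 0.517).

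By value the IDH3A difference between the sexes was larger in psoas than in diaphragm. In psoas the brighter probe set was 9.82, 9.72, 9.85 and 10.16 in males 1 to 4 and 9.33, 9.37, 9.40 and 9.59 in females 5 to 8. Every male was above every female, in 1 of the 12 members and in 5.42% of all tested. The difference was -0.46 ± 0.13 (adjusted p = 0.272), and that of the dimmer one was -0.81 ± 0.27 (adjusted p = 0.331). Females 5 and 7 had the highest actin differences among the psoas arrays (3.71 and 3.85). Over these arrays the actin difference correlated at r = -0.30 with the brighter probe set and -0.61 with the dimmer one. Neither passed the exact permutation test (adjusted p = 0.801 and 0.665), and without animals 5 and 7 r was 0.47 and -0.075. In diaphragm the same probe sets differed by -0.10 ± 0.13 and -0.22 ± 0.26. These comparisons within a muscle were added after the data were seen, and called no member, against 0.122% of all tested in diaphragm and 0.0959% in psoas. An unadjusted p under 0.05 was reached by both IDH3A probe sets in psoas (11.6% of all tested) and by no member in diaphragm (6.62%).

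The psoas minus diaphragm difference of the brighter IDH3A probe set was 0.70 ± 0.14 (SD, n = 4) in males and 0.34 ± 0.26 (SD, n = 4) in females. The test of this dependence on sex gave -0.36 ± 0.17 (adjusted p = 0.510). By value it was larger for the dimmer SDHA probe set (-0.62), the dimmer IDH3A probe set (-0.58) and OGDH (-0.39). The test called 0 members and 0% of all tested, with 1161 (10.1%) at an unadjusted p under 0.05 and no member among them. In diaphragm, IDH3B and SDHD were the members whose sexes did not overlap, 2 of 12 against 3.77% of all tested. SDHD was 12.76, 12.77, 12.77 and 12.81 in males 1 to 4 and 12.69, 12.59, 12.54 and 12.39 in females 5 to 8, and its difference of -0.23 ± 0.099 was not called (adjusted p = 0.747). IDH3B spanned 6.58 to 6.87 in males and 6.44 to 6.55 in females (-0.19 ± 0.10, adjusted p = 0.801).

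Of the 10 other enzymes of the cycle, 8 were tested, and 1 fell in psoas and none rose. Their median difference was -0.10, against 0.04 over all 4571 tested genes, of which 17.3% were higher and 12.2% lower in psoas. SUCLG2, the GTP-forming partner of SUCLG1, had a mean log2 level of 10.28 ± 0.17 in diaphragm and 9.89 ± 0.37 in psoas (SD, n = 8 each) and was lower in psoas in all 8 animals (-0.38 ± 0.13, adjusted p = 0.0368). Its call was lost under 9 of 17 alternative settings, among them those without animal 1, 3, 4, 5 or 7 (-0.41 to -0.30, adjusted p = 0.0559 to 0.102). It was also lost with the actin difference as a covariate (-0.34, adjusted p = 0.119) and with animals 4, 6, 7 and 8 alone (-0.31, adjusted p = 0.288). SUCLA2, the ATP-forming partner, was 0.11 ± 0.078 (adjusted p = 0.298).

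SDHB, the iron-sulphur subunit of succinate dehydrogenase, was represented by its brighter probe set, at -0.08 ± 0.065 (adjusted p = 0.383). The dimmer one, Ssc.8939.1.S2_at, fell from 9.61 ± 0.15 to 9.20 ± 0.16 (SD, n = 8 each), lower in psoas in all 8 animals (-0.41 ± 0.082, adjusted p = 0.00227). With animals 4, 6, 7 and 8 alone it was -0.42 and not called (adjusted p = 0.114). For both SDHA and SDHB, then, 1 of 2 probe sets was called lower. SDHC, the other membrane anchor, was -0.14 ± 0.15 (adjusted p = 0.526).

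Among the listed genes around the cycle, PDK3 showed the largest called change. It encodes a kinase that inactivates pyruvate dehydrogenase, the complex that supplies the cycle with acetyl-CoA from pyruvate. Of 6 tested genes of that complex and its regulators it was the 1 that rose. Its mean was 5.12 ± 0.49 in diaphragm and 6.17 ± 0.32 in psoas (SD, n = 8 each), higher in psoas in all 8 animals, by 1.06 ± 0.12 (2.08-fold, adjusted p = 3.4e-05). It was called under all 17 alternatives. The subunits PDHA1, PDHB and DLAT lay between -0.07 and 0.08 and were not called.

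Of 8 tested cytosolic counterparts and shuttle genes, 2 rose in psoas and none fell. SLC25A11, the oxoglutarate-malate carrier, was 0.43 ± 0.11 higher (adjusted p = 0.0085), in 7 of 8 animals, and 0.21 with animals 4, 6, 7 and 8 alone (adjusted p = 0.379). SLC25A12, an aspartate-glutamate carrier, was 0.28 ± 0.080 higher (adjusted p = 0.0182), also in 7 of 8. It lost its call under 6 of 17 alternatives, among them those without animal 2, 5 or 6 (adjusted p = 0.0510 to 0.0548). The call was also lost with the actin difference as a covariate (0.21, adjusted p = 0.0913) and with animals 4, 6, 7 and 8 alone (0.25, adjusted p = 0.357). Both carriers belong to the malate-aspartate shuttle, in which MDH2 was lower. MDH1, its cytosolic counterpart, was -0.24 ± 0.096 (adjusted p = 0.0815). Among 4 tested genes that replenish the cycle 1 fell, ME3, a mitochondrial malic enzyme, by 0.71 on the log2 scale (SE 0.22, adjusted p = 0.0256), lower in 7 of 8 animals. The call was lost under 6 of 17 alternatives, among them those without animal 3, 4, 7 or 8 (-0.67 to -0.59, adjusted p = 0.0511 to 0.0792). With animals 4, 6, 7 and 8 alone the ME3 difference was -0.83 and not called (adjusted p = 0.147). The assembly factor SDHAF2 (-0.02) and the 3 tested regulators of mitochondrial content, PPARGC1A (0.15), TFAM (-0.11) and PPARD (0.24), were not called. No gene of these lists was called by feeding or sex.

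**Figure D5:**
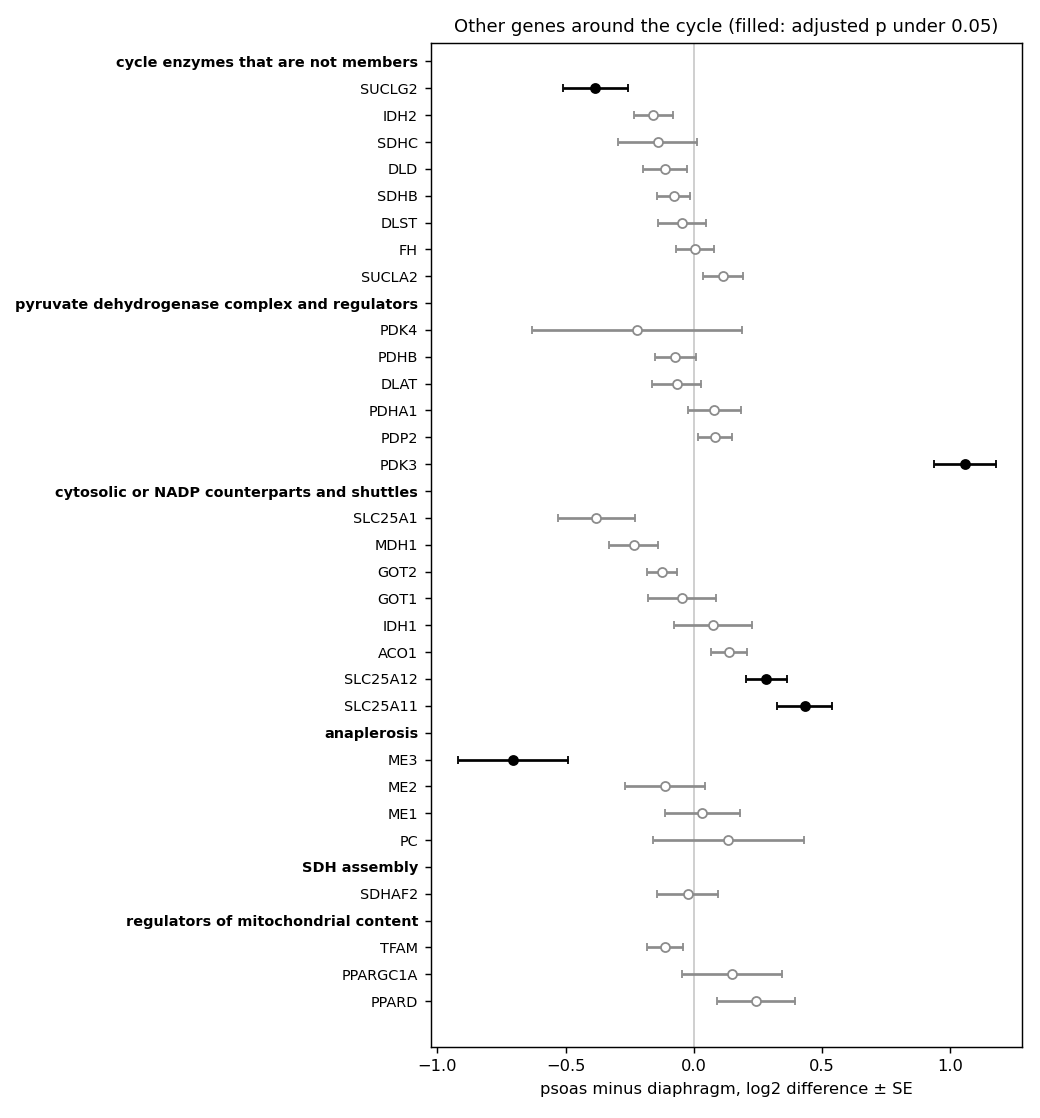
Psoas minus diaphragm difference in log2 units ± SE (horizontal axis) of the tested genes around the cycle, 1 probe set per gene, grouped by role; filled points passed an adjusted p of 0.05. SUCLG2 and ME3 lie left of 0, and PDK3, SLC25A11 and SLC25A12 right of it.

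Markers of fibre types were also compared between the muscles. Of 9 tested slow-fibre markers 6 were lower and none higher in psoas, against 12.2% of all tested genes lower. The slow-fibre markers had a median difference of -0.26. Their mean level spanned 12.87 to 13.10 in the diaphragm arrays and 12.12 to 12.89 in the psoas arrays. Of 6 fast-fibre markers 4 were higher and none lower, against 17.3% of all tested genes higher. The fast-fibre markers had a median difference of 0.32 and levels of 13.55 to 13.97 in diaphragm and 14.37 to 14.71 in psoas. MYH2, the myosin of fast oxidative fibres, rose most (2.74 ± 0.14, adjusted p = 3.8e-09).

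Many markers of other cells were called lower in psoas, as were 12.2% of all tested genes. The counts, each with the range of the list's mean level over arrays, were 4 of 5 tested for endothelium (7.50 to 7.95 in diaphragm and 6.81 to 7.40 in psoas), 3 of 3 for fibroblasts (7.48 to 8.67 and 6.43 to 7.48), 2 of 3 for adipocytes (7.08 to 9.29 and 6.76 to 7.21) and 1 of 3 for immune cells (5.64 to 6.81 and 5.34 to 6.11). All 7 hepatocyte markers were lower, with levels of 3.64 to 7.93 in diaphragm and 3.13 to 3.78 in psoas. These mean psoas levels lay below the filter's minimum of 4. A marker that low in psoas could pass only through diaphragm arrays in which it was high, so that this count is no result. The heart marker TNNI3 was higher (0.84 ± 0.28, adjusted p = 0.0385), and neither of 2 erythrocyte markers was called. In immune cells the defining PTPRC and CD14, in adipocytes LEP and in endothelium KDR and TIE1 lay too low to be tested. The part of fibre types and of these other cells in the enzyme differences was not tested.

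The genes whose pattern over the 16 arrays was most like that of each member were found by Pearson's correlation with its brightest probe set. These values are a description over arrays that share animals and muscles. For CS they were GOT1 (0.83), NDUFB2 (0.82) and NDUFB9 (0.81), of which both NDUFB genes encode subunits of respiratory complex I. IDH3A came closest to DHX15 (0.91), EIF2D (0.90) and LTV1 (0.87), none of which encodes a mitochondrial enzyme, whereas IDH3B came closest to ATP5O (0.86), NDUFA11 (0.83) and ATP5H (0.81), all of the respiratory chain or ATP synthase. IDH3G was most like EEF1A1 (0.89), ATP5G2 (0.82), a gene of ATP synthase, and RPL19 (0.81). OGDH was most like ABHD14A (0.87), MACF1 (0.73) and DCTN1 (0.72). SUCLG1 was most like STEAP4 (0.69), the member IDH3B (0.67) and TRAPPC2L (0.66).

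SDHA was most like ACOT9 (0.92), ATP5F1 (0.91) and GOT2 (0.90), SDHD like GFM1 (0.89) and ATP5G3 (0.87), and MDH2 like COX7C (0.94), CAV1 (0.91) and PHF11 (0.91). After the mean of each muscle was subtracted, the probe sets of 1 gene correlated at 0.78 for CS, 0.73 for SDHA and 0.72 for IDH3A. Among different members IDH3B and the brighter SDHA probe set reached 0.74. The brighter IDH3A probe set correlated at 0.13 with IDH3B and at -0.30 with IDH3G, the other subunits of its enzyme, and at -0.40 with SUCLG1.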

How the data were processed

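Expression was measured on 16 arrays, 2 per animal. The authors deposited log2 values. They come from GCRMA, per the submitters' processing notes, with no version named there. This method models background from probe sequence and gives all arrays a common distribution, which removes a change in which most transcripts take part. The deposited values were used as they stand. Of 24123 probe sets, 10099 had 1 symbol in the platform annotation, 198 several and 13826 none. The gene identifiers of all 12 member probe sets gave the same symbols in assembly Sscrofa11.1. No sequences or coordinates of the probe sets were used here.

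Probe sets at or above log2 4 in at least 4 arrays were tested (11467, without 124 control probe sets), using limma 3.58.1 (lmFit, eBayes) under R 4.3.3 and Benjamini-Hochberg adjustment over all of them. Adjusted p-values come from limma unless an exact test is named. Muscles were compared on 16 arrays with sex and feeding as covariates, feeding and sex on animal means or within a muscle with the other factor as covariate, and interactions on the muscle difference within animals. The scripts were tested on simulated data. The labels pair the arrays by animal, and the residuals of the 2 arrays of an animal correlated at 0.0724 to 0.257. Alternatives were other filters, median centring, no covariate, an intensity trend, each animal left out and the animal as a block; the actin covariate and the 4 animals alone were added after the data were seen. The precision is limited by the number of arrays.

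The members and the lists were chosen with earlier results of these data known. All members are described. Of the listed pathway genes those called are named, with further ones chosen after their values were seen; the probe set of highest mean stood for a gene. Likeness took the 3 most correlated genes per member.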

Additional observations from a re-analysis of the deposited data

Results flagged for a closer look

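The 8 arrays of each muscle were searched for a value far from the rest, for each member probe set and for actin. The 8 muscle differences within animals were searched for each member probe set. By Dixon's test 3 of the 38 groups examined held one, where chance gives about 1 in 20. In psoas, the dimmer CS probe set was 10.71 in animal 7, against 11.12 to 11.44 in the other animals. OGDH in psoas was 8.29 in animal 5, against 8.79 to 9.14 in the others. SUCLG1 in psoas was 13.13 in animal 6, against 12.84 to 12.96 in the others. Animals 7 and 5 had the highest actin 3' minus 5' differences among the psoas arrays (3.85 and 3.71), and animal 6 had 3.42. The part of RNA quality in these values was not tested.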

How the results depend on the processing

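Of 1572 values of members under alternative settings, 1560 kept their side of the threshold and 12 did not. No difference called in the main comparison changed direction under any of them. The dimmer SDHA probe set, called only with the actin covariate (-0.57), was -0.13 in the main comparison and 0.07 without replicate 7. The sign of other uncalled differences was not read. Between the muscles, 1 member was called higher and 2 lower. Left-out animals gave 1 to 2 higher (2 without replicate 7, by the dimmer IDH3A probe set) and 2 to 3 lower, and animals 4, 6, 7 and 8 alone gave 0 and 0. With the replicate block (the animal as a fixed term), 1 was higher and 3 lower, SDHD being called, among 3836 calls; the brighter IDH3A probe set then had an adjusted p of 0.00265, the brighter SDHA probe set 0.0128 and MDH2 0.0057. The block changed no other call of a member. SDHD was called under 7 of 17 alternatives (adjusted p 0.0241 to 0.475 over all). Calls over all probe sets numbered 3094 in the main comparison of muscles and 405 with the 4 animals alone. By sex they numbered 21, 39 with the replicate block and 13 without replicate 2 or 3, and with the log2 6 filter 70% of them were higher in females against 52.4%. By feeding they numbered 0 to 1 over animal means, and 0 to 2 within a muscle, with no member among them. The cause of these changes was not tested.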

Other observations

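PDK4, the pyruvate dehydrogenase kinase that muscle induces in fasting, was named after its values were seen. It varied more between animals than any member: its brighter probe set ranged from 10.98 to 13.42 in diaphragm (SD 0.83, n = 8) and from 10.69 to 13.65 in psoas (SD 1.06, n = 8). Its muscle difference was -0.22 ± 0.41 (adjusted p = 0.717). It was 0.80 higher under restriction on the mean of both muscles, which limma did not call (adjusted p = 0.576), and the dimmer probe set gave 0.88 (adjusted p = 0.622).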
